A study of Mus musculus with 6 samples.

Results

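Apolipoproteins and the proteins that load and remodel lipoproteins were examined in livers of Mig-6 d/d and Mig-6 f/f mice on Affymetrix expression arrays. The set holds 10 genes, Apob, Mttp, Apoa1, Apoa2, Apoa4, Apom, Apof, Apoe, Apoc1 and Pltp, taken by their function. The choice was made with earlier results of these data known, so counts of members beside all genes are descriptive. The genes are represented by every probe set that the platform annotation assigns to 1 of these symbols only, 18 of 34945 probe sets with a single symbol. All 18 were bright enough to pass the filter on dim probe sets, so each of the 10 genes was among the 13718 genes tested.

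The 6 arrays hold RNA of 3 Mig-6 d/d livers and 3 Mig-6 f/f livers. Mice of both genotypes were males of mixed background, aged 8 weeks, kept on chow and fasted for 24 h before sampling. Mig-6 is encoded by Errfi1 and dampens signalling by receptors of the EGFR family. The labels do not say what the letters f and d stand for, which promoter drove any recombination or whether each array holds a separate animal. The p-values therefore speak only of the spread among these 6 samples, which may be technical.

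The liver packages triglyceride and cholesterol into very low density lipoprotein around apolipoprotein B, with lipid delivered by the microsomal transfer protein in the endoplasmic reticulum. It also secretes most of the plasma apolipoprotein A-I, the frame of high density lipoprotein (HDL), and a set of small exchangeable apolipoproteins that move between particles and steer their lipolysis and uptake. During fasting, the liver takes up fatty acids from adipose tissue and returns part of them to the blood in these particles.

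Apoa4 and Apom read highest in d/d relative to f/f livers, by 1.73-fold and 1.28-fold, and the other 8 genes differed by no more than 0.18 in log2. None of the 10 passed the test over all genes. With limma and Benjamini-Hochberg adjustment, 0 of 10 members had an adjusted p under 0.05, where 0.0948% of all genes tested did (13 genes). At an unadjusted p under 0.05 there were 2 members, Apoa4 and Apom, both higher in d/d livers, against 7.84% of all genes (4.77% higher in d/d). Of the 10 members, 8 lay above 0 and the median log2 difference was 0.11, while 46.5% of all genes lay above 0 and their median was -0.015. Differences are d/d minus f/f of log2(intensity + 16) after quantile normalization, with the standard error of limma and n = 3 per group.

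After quantile normalization the d/d and f/f arrays did not overlap for 5 of the 10 members, compared with 14.7% of all genes tested. Apob, Apoa1, Apoa4 and Apom were then higher on every d/d array (7.9% of all genes), Apoa4 by a narrow margin and with overlap on the deposited scale, and Apoa2 was lower on every d/d array (6.79% of all genes). Mttp, Pltp, Apof, Apoe and Apoc1 overlapped, Apoe and Apoc1 only through a tied value. Among the 18 probe sets, 0 passed an adjusted p of 0.05 in the limma fit over all single-symbol probe sets (0.0744% of these did) and 4 had an unadjusted p under 0.05 (6.81%, with 4.01% higher in d/d), namely both probe sets of Apoa4 and both of Apom. Of the 18, 15 lay above 0 (47.8% of all probe sets). After normalization 10 did not overlap (13.1%), 9 of them higher (6.78%) and 1 lower (6.28%) in d/d livers. The 9 are probe sets of Apob, Apoa1, Apoa4 and Apom only, so the same gene is counted more than once. The shares of all probe sets include dim ones, while all 18 are bright, so the counts show no excess.

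**Figure D1:**
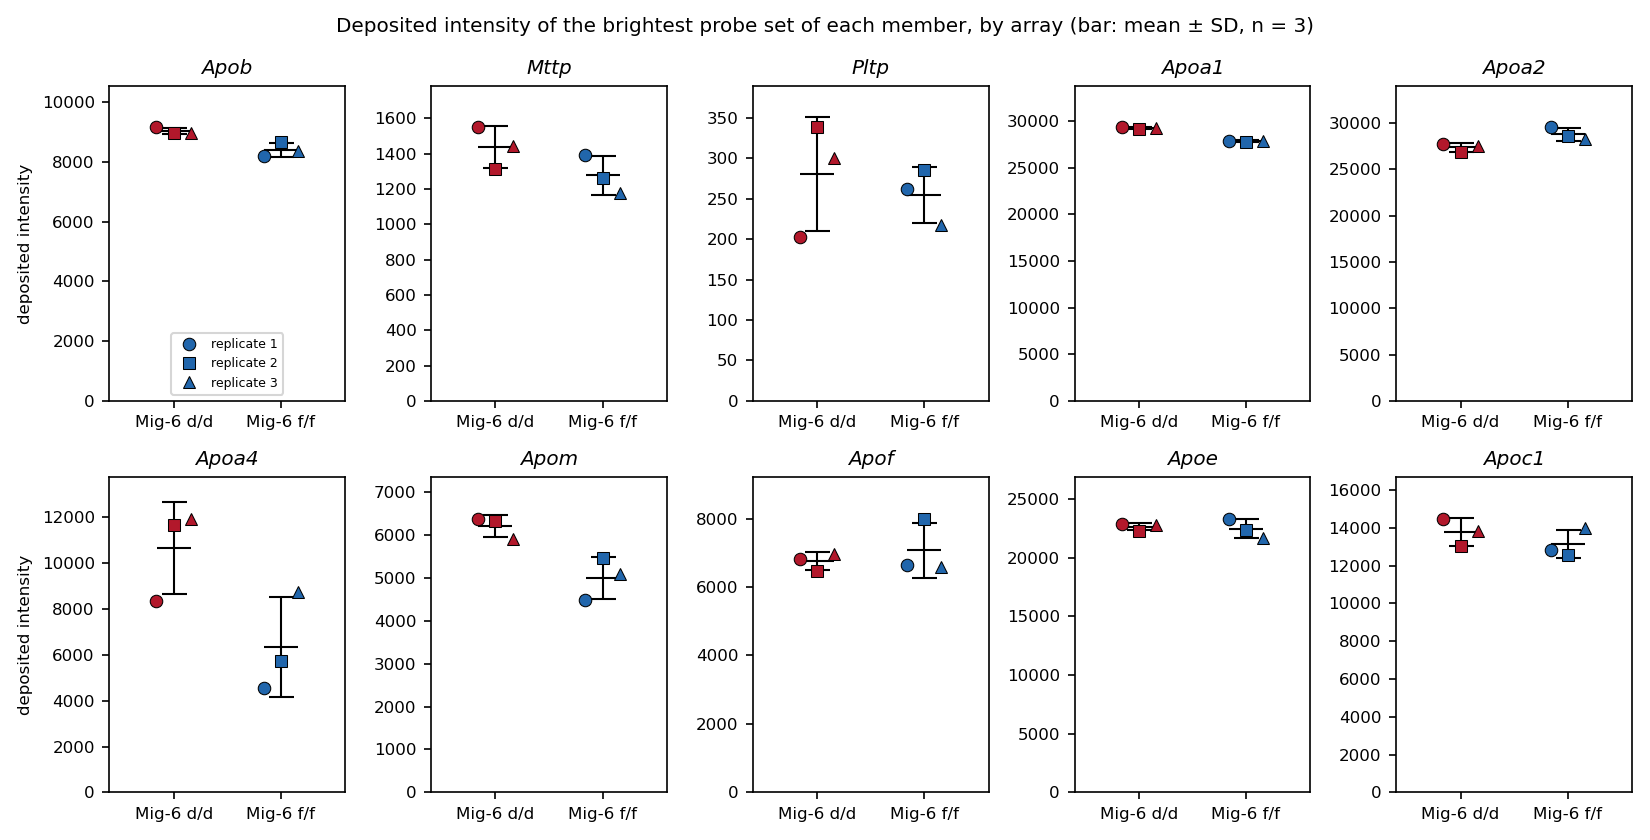
Deposited intensity (linear scale from 0) of the brightest probe set of each of the 10 genes on the 3 Mig-6 d/d arrays (red) and the 3 Mig-6 f/f arrays (blue), with a bar for the mean and SD of each group and a symbol for each replicate. Apoa4 has the widest gap between group means, with f/f replicate 3 (8752) above d/d replicate 1 (8348), while the groups of Apob, Apoa1, Apoa2 and Apom do not overlap.

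The arrays were checked through Errfi1, which had 68.05, 61.8 and 59.65 in d/d livers, against 5371, 5424 and 5686 in f/f livers, a log2 difference of -6.10 ± 0.10 (limma, Benjamini-Hochberg adjusted p = 4.91e-08). The labels do not place its probe sets relative to any deleted part. Markers of hepatocytes were bright on all arrays, and those 9 of 10 that had a probe set summed to 161744 to 163717 in d/d and 157763 to 166285 in f/f livers. The sum hides single genes. After normalization Tat (-0.39 ± 0.15) and Tdo2 (-0.17 ± 0.10) were lower on every d/d array, and Ahsg (0.17 ± 0.10) was higher. None of the 9 passed, and Tat had an unadjusted p of 0.0257 in limma. Of 8 measured enterocyte markers, 4 were under the dim limit (Vil1, Alpi, Cdx1 and Slc15a1) and 4 above it. Of these, Fabp2 had -0.51 ± 0.14, Lct -0.32 ± 0.11, Anpep 0.30 ± 0.11 and Cdx2 0.035 ± 0.15. The first 3 had an unadjusted p under 0.05 in limma, as did 6.81% of all probe sets, and none of the 8 markers passed. The 8 summed to 1015 to 1055 in d/d and 1062 to 1342 in f/f livers. Fabp2 was the largest part of each sum, with 519 to 537 in d/d and 614 to 886 in f/f livers. The sum therefore mostly follows Fabp2 and is no measure of intestinal RNA. The part of these markers in the values of Apoa4, which the intestine also makes, was not tested. One array, f/f replicate 3, differed from the rest, with a mean correlation of 0.952 with the others, whose values were 0.974 to 0.978, and an 18S control signal of 3807 where the other arrays had 218 to 455. Apoa4, Paqr9, Pltp, Apol7a and Furin are given with and without it. In whole liver, fewer cells of a type and less RNA per cell cannot be told apart.

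Apoa4 encodes apolipoprotein A-IV, an exchangeable apolipoprotein of HDL and triglyceride-rich particles, made by liver and intestine in mice. The promoter window of Apoa4 is shown because it had the largest difference of the set, that of Apom because it was next, and that of Apoa1 because this neighbour of Apoa4 in the same gene cluster differed little. Sequences are from RefSeq on build GRCm38.p6, run 5′ to 3′ on the gene's strand, and hold 250 bases before and 50 bases after the annotated start. The table held 8 of the 10 genes, all except Apof and Apoc1. Capitals mark the letters CAAAGTTCA, a variant of the site of nuclear receptors such as HNF4, which was added to the search after the windows were seen.
Apoa4, chr9:46240594-46240893, plus strand: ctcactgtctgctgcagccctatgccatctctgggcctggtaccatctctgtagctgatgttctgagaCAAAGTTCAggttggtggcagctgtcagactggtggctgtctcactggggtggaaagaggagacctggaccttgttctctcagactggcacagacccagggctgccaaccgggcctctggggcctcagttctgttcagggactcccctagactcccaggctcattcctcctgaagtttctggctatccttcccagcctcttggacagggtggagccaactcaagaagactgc
Apoa1, chr9:46228380-46228679, plus strand: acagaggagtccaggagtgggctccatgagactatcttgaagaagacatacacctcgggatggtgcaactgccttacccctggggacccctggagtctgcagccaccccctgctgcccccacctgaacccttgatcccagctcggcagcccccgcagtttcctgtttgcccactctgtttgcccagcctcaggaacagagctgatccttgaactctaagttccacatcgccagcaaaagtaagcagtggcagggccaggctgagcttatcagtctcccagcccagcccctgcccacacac
Apom, chr17:35131752-35132051, minus strand: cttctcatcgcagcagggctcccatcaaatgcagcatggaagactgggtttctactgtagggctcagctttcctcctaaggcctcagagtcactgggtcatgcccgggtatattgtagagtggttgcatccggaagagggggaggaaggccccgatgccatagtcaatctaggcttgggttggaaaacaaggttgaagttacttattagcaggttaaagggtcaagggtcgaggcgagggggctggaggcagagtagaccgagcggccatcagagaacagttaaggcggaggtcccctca

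The added letters CAAAGTTCA begin at position -182 from the start of Apoa4 and occur, on either strand, in 0.39% of 32851 promoter windows of this length. The 9 motifs searched besides it, on both strands, were CAAAGTCCA (0.475% of windows), AGGTCA (16.3%), GTTAAT (7.1%), TGTTTAC (3.65%), TGTTTTG (6.28%), CCAAT (37.4%), TATAAA (13.6%), CACCCCAC (2.87%) and GGGCGG (35.7%). None of these 9 is in the 3 windows printed. Only exact letters were searched, so sites with other letters are left unmarked. The windows therefore do not show that Apoa1 or Apom lacks a site of the kind marked in Apoa4. Among the other members, TATAAA was found in windows of Apob, Apoa2, Apoe and Pltp. TGTTTAC was found in 1 window each of Apoa2 and Apoe.

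The brighter probe set of Apoa4 read 8348, 11670 and 11940 on the d/d arrays, against 4553, 5711 and 8752 on the f/f arrays. Its d/d replicate 1 was low within its group and f/f replicate 3 high within its own, and these were the arrays that met. The other probe set read 7652, 10858 and 11112 in d/d livers and 4038, 4768 and 7265 in f/f livers, in the same order within each group and without overlap. The means were 10653 ± 2000 in d/d and 6339 ± 2168 in f/f livers for the brighter set (SD, n = 3). The log2 differences were 0.79 ± 0.23 (limma, Benjamini-Hochberg adjusted p over genes = 0.355, 95% interval 0.27 to 1.31) and, for the other set, 0.96 ± 0.21 (adjusted p = 0.23 over probe sets).

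Without f/f replicate 3 the difference of Apoa4 was 1.04 and passed (limma, Benjamini-Hochberg adjusted p = 0.0407), as 1 of 10 members, where 0.635% of genes passed. Both Apoa4 probe sets passed there among the 18 (0.392% of all probe sets). With arrays weighted by their quality it was 0.94 and passed as well (limma, Benjamini-Hochberg adjusted p = 0.0217), again as 1 of 10, where 1.57% of genes passed (2 of 18 probe sets, 0.595% of all), with a weight of 0.178 for f/f replicate 3 against 0.963 to 1.84 for the others. Leaving out any of the other 5 arrays gave 0.62 to 0.94 with adjusted p from 0.521 to 0.922. The sign was positive throughout.

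Apom encodes apolipoprotein M, which sits on HDL and carries sphingosine 1-phosphate. One probe set read 6377, 6315 and 5906 in d/d livers, against 4473, 5447 and 5079 in f/f livers. The other read 4871, 4313 and 4265 in d/d livers and 3373, 4073 and 3814 in f/f livers. On both, every d/d array lay above every f/f array, and f/f replicate 1 was the lowest of the 6. The log2 difference was 0.35 ± 0.11 (limma, Benjamini-Hochberg adjusted p = 0.391, 95% interval 0.10 to 0.60), and the other set had 0.30 ± 0.12. With 1 array left out it ran from 0.30 to 0.41, and the lowest adjusted p over all alternatives was 0.135.

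**Figure D2:**
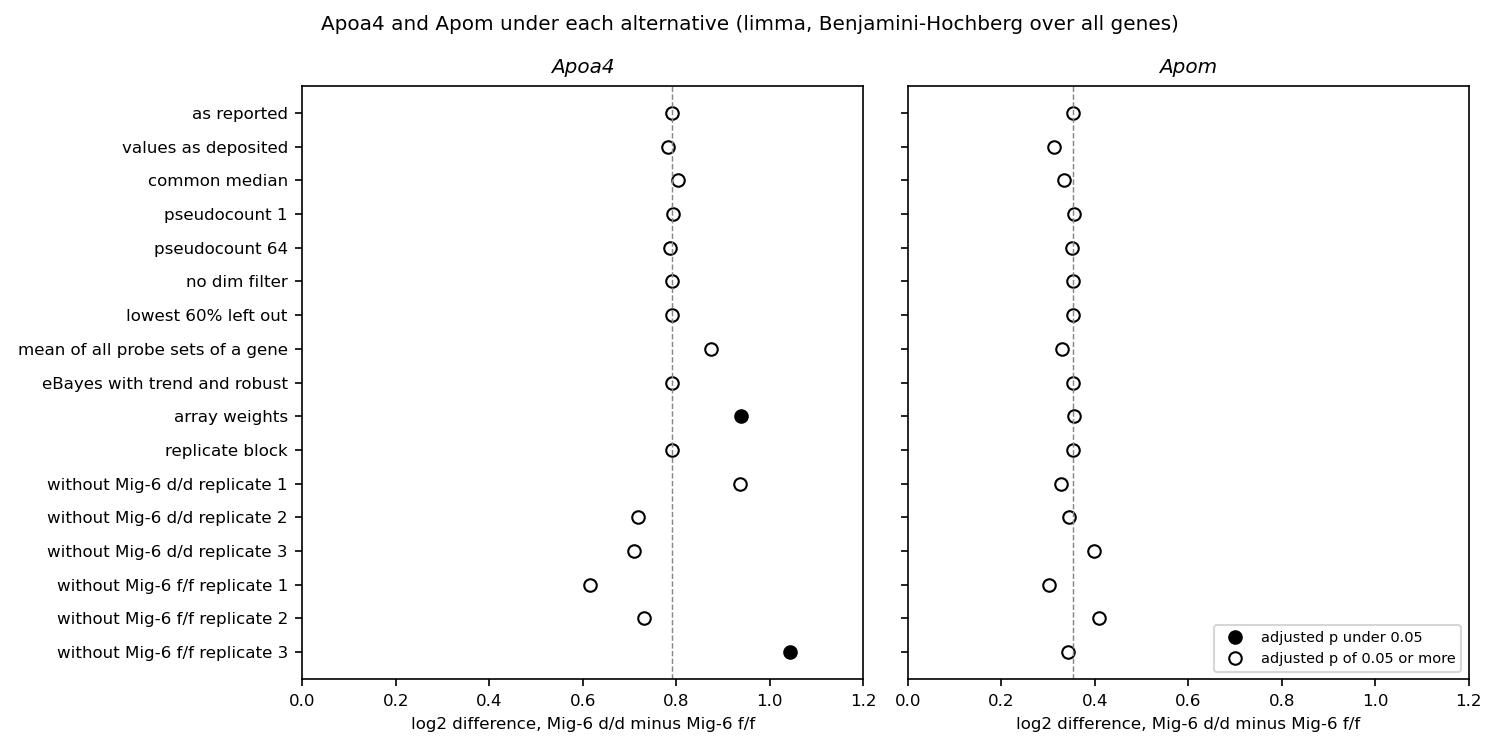
Log2 difference (d/d minus f/f) of Apoa4 (left) and Apom (right) in the fit as reported and under each of 16 alternatives, 1 point each, filled where the adjusted p was under 0.05. Apoa4 passes with array weights and without f/f replicate 3, at 0.94 and 1.04, and Apom lies between 0.30 and 0.41 and passes nowhere.

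Apob, the single nonexchangeable protein of very low density and low density lipoprotein, read 9166, 8967 and 8967 in d/d livers, against 8182, 8650 and 8370 in f/f livers. The other probe set of Apob had 230, 234 and 228 in d/d livers and 221, 211 and 203 in f/f livers. The groups were narrow and separate on both probe sets, with means that differed by 1.08 and 1.09 times on the deposited scale. The log2 difference was 0.15 ± 0.098 for the first (limma, Benjamini-Hochberg adjusted p = 0.797, 95% interval -0.079 to 0.37) and 0.12 ± 0.10 for the second. Its SD within groups was 0.051 in d/d and 0.027 in f/f livers on the log2 scale, so most of the standard error comes from the spread that limma shares over all genes.

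Mttp, which encodes the lipid-transferring subunit of the microsomal transfer protein, read 1551, 1314 and 1444 in d/d livers and 1395, 1261 and 1178 in f/f livers. The groups overlapped, since d/d replicate 2 lay below f/f replicate 1. The log2 difference was 0.18 ± 0.12 (limma, Benjamini-Hochberg adjusted p = 0.798, 95% interval -0.099 to 0.46). Its other probe set, with 841, 765 and 744 in d/d and 876, 717 and 682 in f/f livers, had 0.064 ± 0.13.

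Apoa1, the main protein of HDL, was represented by 4 probe sets, and on all 4 the deposited values of the d/d arrays lay above those of the f/f arrays. The brightest read 29379, 29189 and 29282 in d/d livers, against 27931, 27781 and 27930 in f/f livers, and the means differed by 1.05 times. The other sets gave 1.04 to 1.07 times. The spread within each group was small beside this step, but the step was not particular to Apoa1. Alb, a brighter hepatocyte marker, also lay higher on every d/d array as deposited, by 1.04 times, and overlapped after normalization. After quantile normalization the difference of the brightest Apoa1 set was 0.054 ± 0.095 (limma, Benjamini-Hochberg adjusted p = 0.916, 95% interval -0.16 to 0.27). The other sets had 0.022 to 0.057, and the least bright of the 4 then overlapped between the groups. On the values as deposited the brightest set had 0.071 (adjusted p = 0.911).

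Apoa2, the second protein of HDL, went the other way in rank and read 27767, 26830 and 27470 in d/d livers, against 29549, 28557 and 28222 in f/f livers. The highest d/d array lay under the lowest f/f array. The log2 difference was -0.13 ± 0.096 (limma, Benjamini-Hochberg adjusted p = 0.807, 95% interval -0.35 to 0.090), and -0.073 on the values as deposited. Apoa1, Apoa2 and Apoe held the 6 member probe sets that averaged over 20000, with values from 21716 to 29549 in a table whose highest value was 41843. Quantile normalization gives the same value to the same rank on every array, so that the 3 f/f arrays had identical normalized values for the brightest set of Apoa1. Whether signal at this brightness is proportional to RNA was not tested.

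Apof encodes apolipoprotein F, a minor component of HDL and low density lipoprotein. It read 6809, 6467 and 6977 in d/d livers and 6643, 7998 and 6574 in f/f livers, with f/f replicate 2 the highest of the 6 and the groups overlapping. The log2 difference was -0.0024 ± 0.12 (limma, Benjamini-Hochberg adjusted p = 0.998, 95% interval -0.27 to 0.26), and its sign turned without d/d replicate 2 or f/f replicate 2.

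Apoe is the ligand by which remnant particles are taken up through receptors of the low density lipoprotein receptor family, and Apoc1 is a small exchangeable apolipoprotein that hinders this uptake. Apoe read 22851, 22293 and 22825 in d/d livers and 23338, 22384 and 21716 in f/f livers. As deposited, the f/f arrays enclosed the d/d arrays. After normalization the groups met only in a tie of d/d replicate 3 with f/f replicate 1. The log2 difference was 0.061 ± 0.097 (limma, Benjamini-Hochberg adjusted p = 0.907, 95% interval -0.16 to 0.28). Apoc1 read 14486, 13045 and 13816 in d/d livers and 12834, 12576 and 13980 in f/f livers, overlapping through f/f replicate 3 as deposited. After normalization its groups met only in a tie of d/d replicate 3 with f/f replicate 1. The log2 difference of Apoc1 was 0.11 ± 0.11 (limma, Benjamini-Hochberg adjusted p = 0.844, 95% interval -0.13 to 0.35) and 0.052 without f/f replicate 2.

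Pltp moves phospholipid between plasma lipoproteins and enlarges HDL. Its probe sets differed in sign. One read 202, 338 and 300.1 in d/d livers, against 262, 285 and 217 in f/f livers. The other had 127, 170 and 119 in d/d and 124, 151 and 173 in f/f livers. The log2 differences were 0.12 ± 0.19 (limma, Benjamini-Hochberg adjusted p = 0.912, 95% interval -0.33 to 0.56) and -0.084 ± 0.14, and the first turned to -0.045 with array weights, to -0.0036 without f/f replicate 3 and to -0.028 without d/d replicate 2. Macrophages make both Apoe and Pltp, and markers of Kupffer cells and macrophages lay lower in d/d livers for 11 of 12 genes. Of all probe sets, 47.8% lay above 0. They summed to 2840 to 3641 in d/d and 3359 to 4605 in f/f livers. The mean of the log2 differences of the single genes was -0.21 (exact permutation test, two-sided, p = 0.2; 3 against 3 cannot go below 0.1), and their part in these results was not tested.

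**Figure D3:**
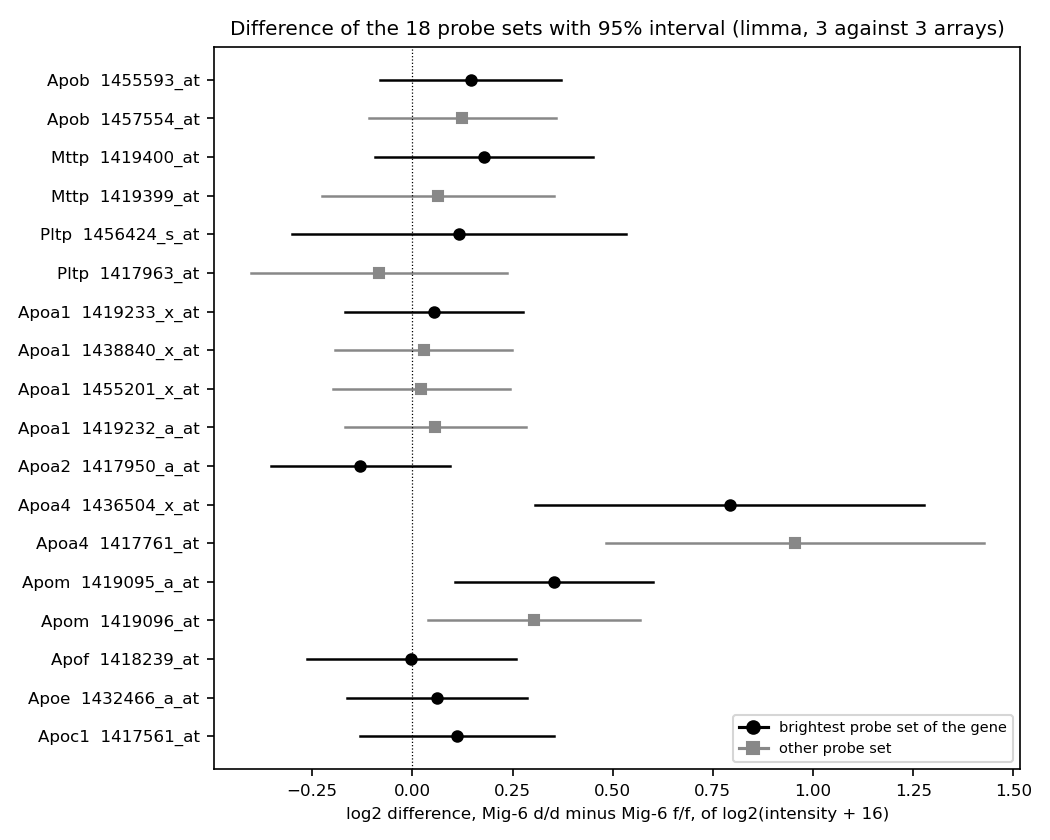
Log2 difference (d/d minus f/f, horizontal axis) with its 95% interval in limma for each of the 18 probe sets, black circles for the probe set that stands for the gene and grey squares for the others. The intervals of both Apoa4 and both Apom probe sets lie above 0, and those of the other 14 include it.

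Apoa4 and Apoa1 lie in a cluster with Apoc3 and Apoa5, and Apoe and Apoc1 in another with Apoc4 and Apoc2. In the first, Apoc3, an inhibitor of lipolysis, read 17667, 16714.5 and 17373 in d/d livers, against 16370, 15828 and 15556 in f/f livers, and had 0.18 ± 0.11 after normalization. Apoa5, an enhancer of lipolysis, read 8813, 9186 and 8863 in d/d livers, against 10648, 10129 and 10796 in f/f livers, and had -0.19 ± 0.10. Both pairs of groups were separate, in opposite directions, and neither gene passed (limma, Benjamini-Hochberg adjusted p = 0.773 and 0.752).

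In the second cluster, Apoc2, the activator of lipoprotein lipase, read 6108, 6238 and 6954 in d/d livers, against 4450, 4878 and 4718 in f/f livers. Every d/d array was above every f/f array, with a log2 difference of 0.51 ± 0.11 that did not pass (limma, Benjamini-Hochberg adjusted p = 0.179) except with array weights (0.48, adjusted p = 0.0364). Apoc4 had -0.052 ± 0.12 and Tomm40, beside Apoe, -0.048 ± 0.12. Of 14 tested genes that neighbour a member without being one, 0 passed in limma. There was 1 (Trmt10a, -0.34) at an unadjusted p under 0.05; 5 were above 0 and 9 below, and the median was -0.061.

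**Figure D4:**
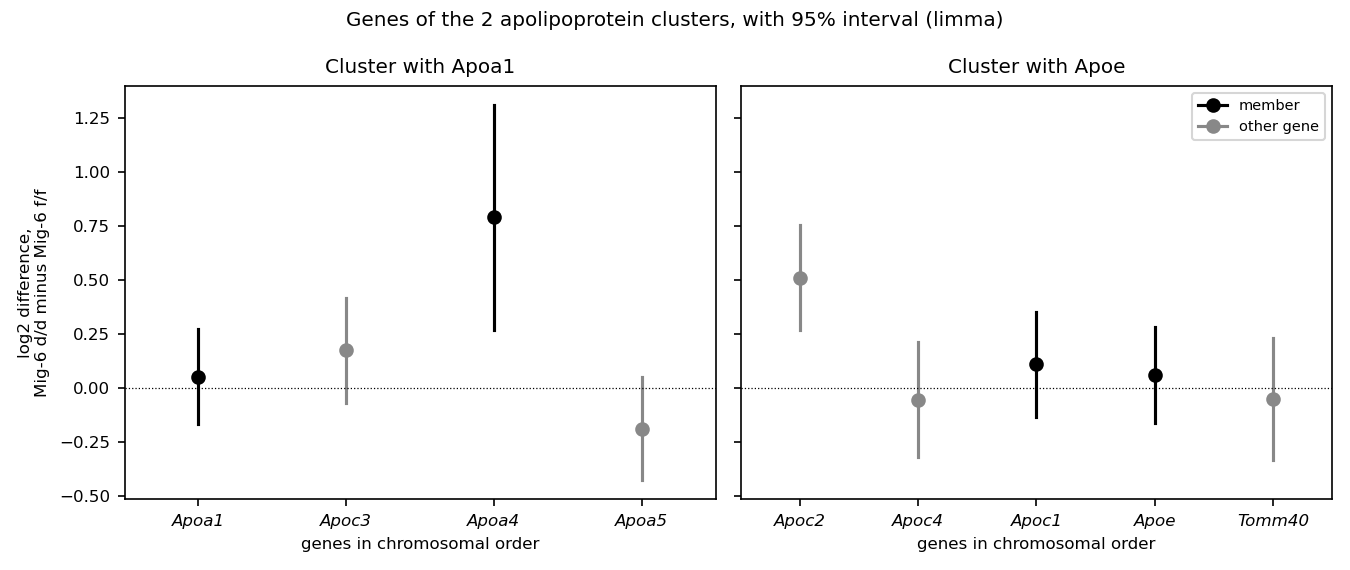
Log2 difference (d/d minus f/f, vertical axis) with its 95% interval in limma for genes in chromosomal order, in the cluster of Apoa1 (left) and the cluster of Apoe (right), members in black and other genes in grey. Apoa4 at 0.79 and Apoc2 at 0.51 have intervals above 0, and the intervals of the other 7 genes include it.

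The genes whose centred values lay closest to those of Apoa4 over the 6 arrays were Alas1, Tsks and Psmb10, with root mean square differences of 0.16, 0.17 and 0.18 on the log2 scale. Alas1, the first enzyme of heme synthesis, read 2356, 2973 and 2307 in d/d livers, against 1320, 1597 and 2211 in f/f livers. Psmb10, a subunit of the immunoproteasome, read 454, 819 and 654 in d/d livers and 287, 366 and 687 in f/f livers. All 3 had f/f replicate 3 as the highest f/f array, as Apoa4 had, which follows largely from how they were picked. None of the 3 passed (limma, Benjamini-Hochberg adjusted p = 0.388, 0.629 and 0.738).

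Other genes of lipoprotein biology were grouped in 5 lists, and of 105 tested 0 passed over all genes in limma, with 14 at an unadjusted p under 0.05 (7.84% of all genes). Of 16 other apolipoproteins tested, 9 were above 0 and 7 below (median 0.063), and 3 had an unadjusted p under 0.05. Apoc2 and Apol7a, of the APOL family, led it by p, with Apol7a at 0.51 ± 0.20 (limma, Benjamini-Hochberg adjusted p = 0.584) and at 0.26 without f/f replicate 3. Saa1 and Saa2, acute phase apolipoproteins of HDL chosen here after their values were seen, had -1.90 ± 0.85 and -2.52 ± 1.17. Of the same family, Saa3 had -0.80 ± 0.50 and Saa4 0.42 ± 0.21, and none of the 4 passed. Saa2 read 186, 3808 and 517 in d/d livers and 1062, 16689 and 4800 in f/f livers, so that replicate 2 was the highest array of both groups and the groups overlapped.

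The list on apolipoprotein B editing and on assembly and secretion of very low density lipoprotein had 34 genes tested. Of these, 19 were above 0 and 15 below, with a median of 0.034 and 3 at an unadjusted p under 0.05 (7.84% of all genes). P4hb, the disulfide isomerase that is the partner subunit of Mttp, had -0.069 ± 0.10, and Apobec1, the enzyme that edits Apob messenger RNA, -0.081 ± 0.12. Hspa5, the main chaperone of the endoplasmic reticulum, read 3920, 3481 and 3915 in d/d livers, against 2658, 2896 and 2863 in f/f livers, with 0.45 ± 0.11 (limma, Benjamini-Hochberg adjusted p = 0.236). It passed with array weights (adjusted p = 0.0466). Its other probe sets had 0.52 and 0.0028. Mia3, which loads bulky cargo into vesicles, had 0.27 ± 0.10 (limma, Benjamini-Hochberg adjusted p = 0.559), with -0.12, 0.069 and -0.0082 on its other probe sets.

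Of 14 genes listed under HDL maturation and remodelling, 6 were above 0 and 8 below, with a median of -0.012. At an unadjusted p under 0.05 there were 3 (7.84% of all genes). Paqr9, a progestin and adipoQ receptor family member, was put in this list with earlier results of these data known. No role in HDL is shown for it here. It read 277, 267 and 275 in d/d livers, against 553, 573 and 414 in f/f livers. Its difference of -0.85 ± 0.14 did not pass (limma, Benjamini-Hochberg adjusted p = 0.103), but did so without f/f replicate 3 (-1.01, adjusted p = 0.00394) and, weighted by array, at -0.97 (adjusted p = 0.00149). Its other probe set had -0.59 ± 0.15. Abca1, which loads lipid onto apolipoprotein A-I, read 1271, 1289 and 1205 in d/d livers, against 778, 916 and 766 in f/f livers. Its difference of 0.63 ± 0.11 (adjusted p = 0.121) passed with array weights (0.58, limma, Benjamini-Hochberg adjusted p = 0.0193). Its other probe sets had 0.22 and 0.29, and the mean of all 3 was 0.38. Lcat, the cholesterol esterifying enzyme of HDL, had 0.068 ± 0.10 and Scarb1, the HDL receptor, -0.13 ± 0.12, with -0.19 and 0.081 on its other probe sets.

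Of 13 lipoprotein receptors and clearance genes, 8 were above 0 and 5 below (median 0.064), and 0 had an unadjusted p under 0.05. Furin and Lrp1 led by p, at 0.29 ± 0.20 and 0.17 ± 0.15. Furin had 0.066 without f/f replicate 3, and Lrp1 0.029 without f/f replicate 1. Among 28 transcriptional regulators of apolipoprotein genes, 17 were above 0 and 11 below (median 0.056). The 5 with an unadjusted p under 0.05 all lay above 0. Of all genes, 7.84% were under this level, and 4.77% of all genes were both under it and higher in d/d. Among the 5, Foxa1 overlapped between the groups after normalization. Mlxipl, the carbohydrate response factor ChREBP, read 375, 404 and 430 in d/d livers, against 262, 274 and 307 in f/f livers, with 0.49 ± 0.11 (limma, Benjamini-Hochberg adjusted p = 0.203). With array weights it passed (adjusted p = 0.0231). Nr5a2 had 0.50 ± 0.14 on one probe set and 0.20, -0.31 and -0.19 on its others. Creb3l3, a fasting-induced activator that acts on Apoa4 in mouse liver, read 1643, 1529 and 1604 in d/d livers, against 1919, 1870 and 1846 in f/f livers, a difference of -0.21 ± 0.099 (limma, Benjamini-Hochberg adjusted p = 0.675). Hnf4a had -0.015 ± 0.11 on its brightest probe set and 0.21, -0.18 and -0.12 on its others. Foxo1 had 0.055 ± 0.13 on its brightest, and 0.45 ± 0.12 and 0.34 ± 0.10 on others that were separate between the groups (limma, Benjamini-Hochberg adjusted p over probe sets = 0.364 and 0.443). A dim probe set of Foxo1 had -0.11.

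**Figure D5:**
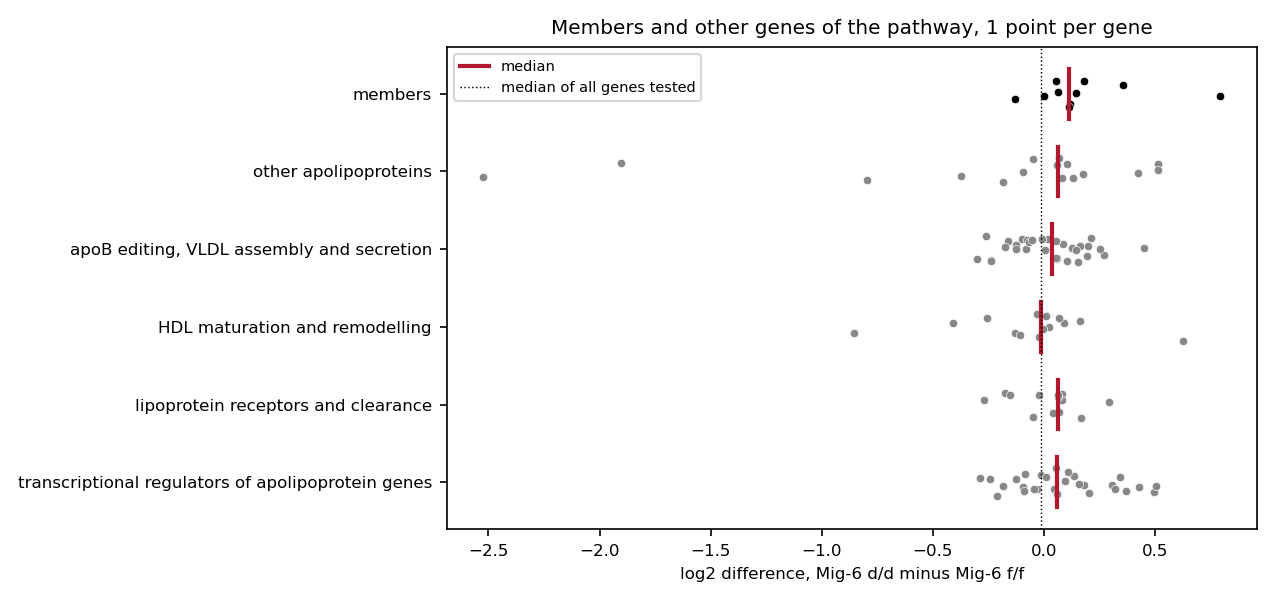
Log2 difference (d/d minus f/f, horizontal axis) of the 10 members (black) and of the genes of 5 further lists (grey), 1 point per gene, with a red bar for the median of each row and a dotted line for the median of all genes tested. The members have a median of 0.11 and the lists medians between -0.012 and 0.064, and the 2 points furthest to the left are Saa2 and Saa1.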

How the data were processed

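Liver RNA was hybridised to Affymetrix arrays after biotin labelling, per the labels' protocols. The authors deposited linear intensities per probe set, 45101 on 6 arrays. Probe summary, background correction and scaling are not given in the sources used here, nor is a genome build. Arrays were grouped by genotype and numbered as in their labels.

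Intensities were taken as log2(intensity + 16) and quantile normalized, since array medians differed by up to 0.185 log2. Probe sets with 1 symbol in the platform annotation were used (34945, with 932 of several symbols, 9160 unnamed and 64 controls left out). The brightest probe set stood for each gene, and the lowest 40% by mean were left out, under an intensity of 48.3. The test between genotypes was limma 3.58.1 (lmFit, then eBayes; R 4.3.3) with no covariate and Benjamini-Hochberg adjustment over 13718 genes, or over all 34945 probe sets for single probe sets. Fold changes understate the change of dim genes, and precision is limited by how many arrays there are. The limma step was tested on simulated data with independent noise and larger differences than any member had. That test does not bear on differences as small as theirs.

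The members and lists were chosen with earlier results of these data known. The rule for named genes took the members, Errfi1, 14 key genes, any passing gene, the 2 lowest p of each list, neighbours of members and the 3 genes most like the member with the largest difference. Some listed genes were not analysed here. Alternatives covered scaling, pseudocounts of 1 and 64, the dim filter, averaging probe sets, array weights, a trended variance model, a block on replicate number and leaving out each array. Same-numbered arrays had deviation correlations of -0.0033, -0.14 and -0.47, so numbers were not taken as pairs. Figures used matplotlib 3.10.9 and tables pandas 2.3.3 in Python 3.11.15.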

Additional observations from a re-analysis of the deposited data

How the results depend on the processing

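The count of members past the threshold was 0 under all alternatives except array weights (1, Apoa4) and without f/f replicate 3 (1, Apoa4), so it ran from 0 to 1 with 1 array left out. Member probe sets past it numbered 2 with array weights and 0 to 2 with 1 array left out. Genes called over the whole table were 13 as reported, 20 with all probe sets of a gene averaged, 21 with a trended and robust variance model, 215 with array weights, 6 with the replicate number as a block, and between 4 and 87 when single arrays were dropped, lowest for d/d replicate 1 and highest for f/f replicate 3. Listed pathway genes called were 5 with array weights, where 1.57% of all genes passed. There was 1 with the replicate block (Saa2, adjusted p = 0.0491, limma). With 1 array left out there were 0 to 1, the 1 without f/f replicate 3, where 0.635% of all genes passed. Paqr9, listed with earlier results of these data known, is that 1 and is also among the 5. With array weights the sign turned for Pltp (-0.045), Apoc4 (0.028), Hnf4a (0.029) and the medians of the assembly list (-0.0031) and the HDL list (0.015), which was also positive with a common median (0.0058). Leaving out 1 array gave Pltp -0.028 to 0.32, Apof -0.067 to 0.071, Apoc4 -0.12 to 0.019, Apobec1 -0.13 to 0.0066, Hnf4a -0.088 to 0.042, Foxo1 -0.051 to 0.14, the second Mttp probe set -0.014 to 0.17, and the medians of the assembly and HDL lists -0.0045 to 0.061 and -0.045 to 0.017. Marker lists whose sign turned were hepatocytes (0.17 as a median), stellate cells (-0.17 as a log2 sum, and -0.053 to 0.086 with 1 array left out), lymphocytes (-0.0064 as a median), endothelial cells (-0.027 to 0.080) and erythroid cells (-0.033 to 0.089). Causes of these shifts were not tested. The replicate block changed no member's call (Apoa4 adjusted p = 0.378, Apom 0.911, limma with Benjamini-Hochberg adjustment). With 3 arrays per group, differences of the size seen for 8 members lie within intervals that include 0, which does not show that they are alike.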
